A study of Homo sapiens with 9 samples.

Results

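The 10 genes described here encode antimicrobial and acute-phase proteins of epithelia: LCN2, SAA1, SAA2, S100A7, S100A8, S100A9, PI3, SLPI, PIGR and PDZK1IP1. They were taken from a fixed list of symbols matched to the Ensembl IDs of the count tables. All 10 were found among the 78899 IDs, and all 10 were among the 16921 genes that passed the filter on low counts. The list was drawn up with levels in these libraries known, so the pattern that marks the control libraries is given as a description with no test.

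The RNA came from HaCaT, an immortalized line of human keratinocytes that is long established, grown in high-glucose DMEM with fetal bovine serum and low calcium. Total RNA was sequenced after rRNA depletion in 3 groups of 3 libraries each: sorted cells labelled BD, sorted cells labelled NBD, and the cell line labelled control. The names BD and NBD are not spelled out in the labels, no treatment, transgene or knockout is given for any group, and all 9 libraries come from 1 cell line. Separate cultures are not named for the replicates, and p-values therefore describe only the spread of these libraries, which may be technical.

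Surface epithelia defend themselves with secreted proteins that starve, bind or kill microbes and with inhibitors that protect the tissue from proteases. In keratinocytes many of these genes are turned on by cytokines of the IL-1, IL-17 and IL-36 families through NF-kB and C/EBP factors, and the protein products rise in inflamed skin and wounds. Serum amyloid A proteins are best known as liver products of the acute phase, but epithelia make them too.

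Total counts ranged from 17128797 to 29512856 per library, and the lowest totals were those of control replicates 1 and 2. Mitochondrial rRNA took 12.3% and 11.9% of counts in these controls, against 17.3% to 28.9% in the other 7 libraries. All 12 keratinocyte markers were measured in the fit, with summed levels of 2767 to 4132 CPM (read counts scaled to the TMM-adjusted size of their library). Leukocyte markers, 16 genes, summed to 1.58 and 2.30 CPM in control replicates 1 and 2 and to 5.50 to 8.46 CPM elsewhere. The T, B and granulocyte genes CD3D, MS4A1, FCGR3B, ELANE and AZU1 had no count in any library. The 16 markers of secretory epithelium summed to 10.2 and 11.6 CPM against 24.8 to 41.1 CPM. The 16 markers of fibroblasts, endothelium and melanocytes summed to 3.58 and 3.98 CPM against 12.2 to 25.5 CPM. The part of other cell types, depth and mitochondrial rRNA in the levels below was not tested, and in bulk RNA fewer expressing cells and less RNA per cell cannot be told apart.

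Control replicates 1 and 2 stood apart from control replicate 3 for these genes, so the control libraries are given one by one. In 9 of the 10 genes, all but SLPI, both replicates lay below all other 7 libraries, a pattern held by 21.6% of the 16921 genes. In 5 of the 10, LCN2, SAA1, SAA2, PIGR and PDZK1IP1, both were at least 4-fold below the lowest of the others, as were 1.93% of genes. None of the 10 was higher in both than in all others, as 18.9% of genes were. Since the list was drawn up with these levels known, nothing is read from these counts. Together the 10 genes took 0.0994% to 0.287% of all counts in the other 7 libraries, and 0.00219% and 0.00259% in control replicates 1 and 2.

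**Figure D1:**
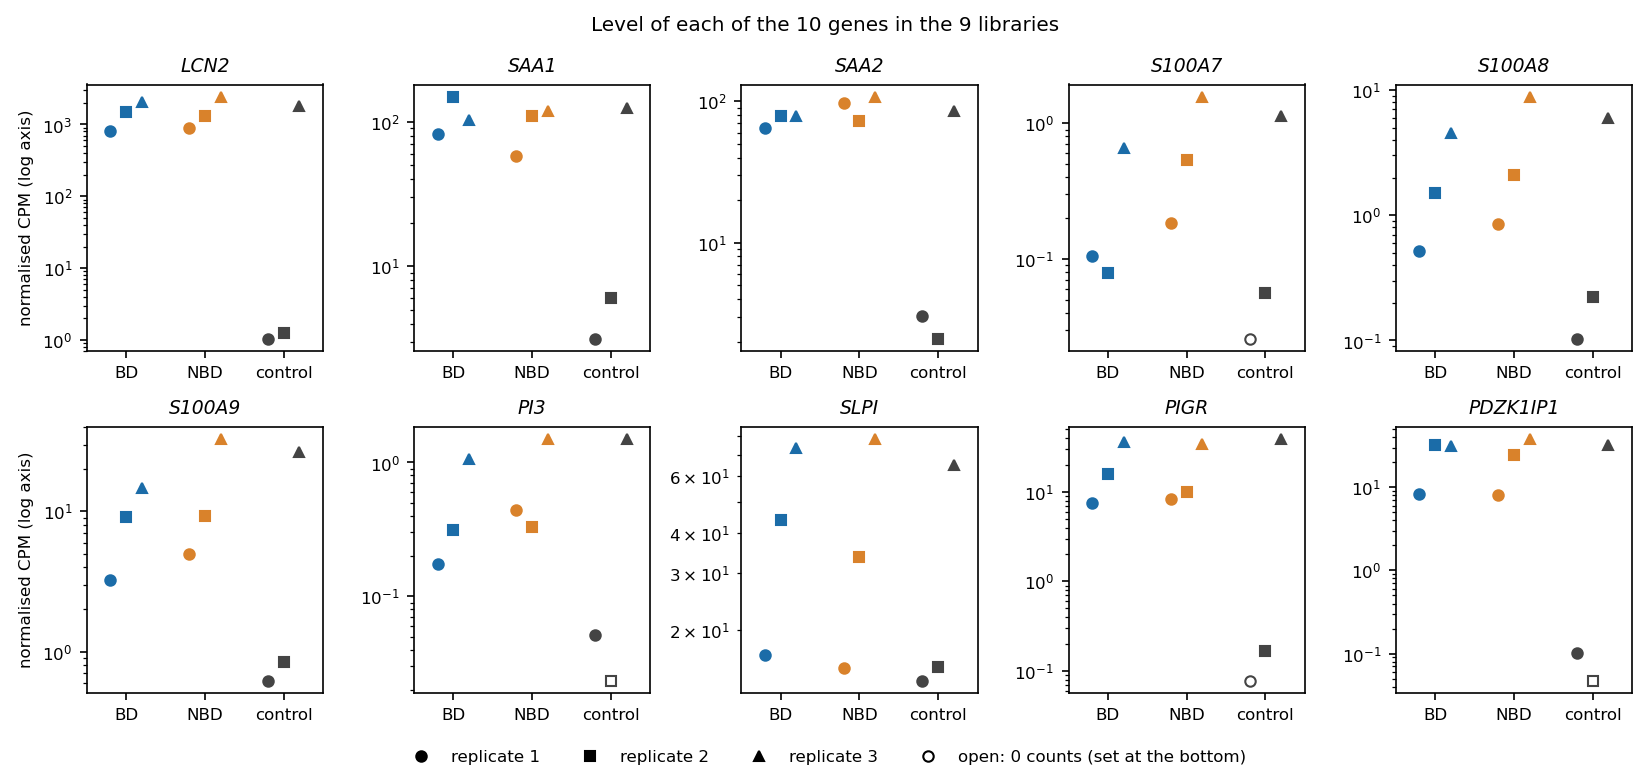
Normalised CPM of each of the 10 genes in each library on a log axis, with 1 point per library, shapes for replicate numbers and open symbols at the bottom for 0 counts. For LCN2 the points of control replicates 1 and 2 sit at 1.02 and 1.23 CPM, while all other points lie between 811 and 2444 CPM.

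LCN2, lipocalin 2, binds bacterial siderophores and so withholds iron from bacteria. It lies on chromosome 9 (GRCh38, 128149071 to 128153455, plus strand) and was the most abundant of the 10 in all libraries but control replicates 1 and 2. Its levels were 811, 1476 and 2089 CPM in BD replicates 1 to 3 and 888, 1331 and 2444 CPM in NBD. The controls gave 1.02, 1.23 and 1808 CPM, the first of these from 20 and the next from 22 counts. Control replicate 3 thus lay inside the range of the sorted libraries, and the other two lay far below it. Pooled counts of control replicates 1 and 2 gave a ratio of 1375 for the other 7 libraries against them, with an exact 95% counting interval of 1017 to 1908 that covers counting error only. The group means, which do not show this split, were 1459 ± 639 CPM in BD and 1554 ± 801 CPM in NBD (SD, n = 3). LCN2 made up 81.6% to 85.9% of the summed CPM of the 10 genes in the other 7 libraries and 4.67% and 4.76% in control replicates 1 and 2.

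The window around the RefSeq start of LCN2 is shown because this gene had the widest gap between libraries. It covers chr9:128149203-128149502 (plus strand, RefSeq, GRCh38.p14), 250 bases before the start and 50 from it, and capitals mark letter matches to searched patterns.
LCN2: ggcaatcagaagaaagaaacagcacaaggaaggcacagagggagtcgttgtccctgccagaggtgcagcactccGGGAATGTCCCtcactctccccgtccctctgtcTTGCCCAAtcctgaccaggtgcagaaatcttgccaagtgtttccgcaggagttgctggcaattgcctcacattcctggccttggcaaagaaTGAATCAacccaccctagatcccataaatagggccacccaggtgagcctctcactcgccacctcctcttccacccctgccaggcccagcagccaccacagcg
The patterns were searched on both strands in windows of the same length, with overlaps allowed. The NF-kB pattern, GGGA and CC with any 4 bases between them, matched LCN2 at -176 to -167 and, overlapping it on the other strand, at -175 to -166. The C/EBP pattern TTGCNNAA matched at -143 to -136, and the AP-1 pattern TGANTCA at -52 to -46. Of 35116 RefSeq windows, 25.6% held the NF-kB pattern, 10.5% the C/EBP pattern and 7.71% the AP-1 pattern. The STAT pattern TTCNNNGAA (7.66% of windows) and the E-box CACGTG (7.26%) matched no window of the members. A match describes letters and is not a binding site. Windows were matched for 6 of the 10 genes, and not for SAA1, SAA2, PI3 and SLPI.

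SAA1 and SAA2 encode serum amyloid A, an acute-phase apolipoprotein of high-density lipoprotein. They lie next to each other on chromosome 11, SAA1 at 18266174 to 18269977 on the plus strand and SAA2 at 18239223 to 18248643 on the minus strand. SAA1 gave 81.8, 149 and 102 CPM in BD, 58.2, 109 and 118 CPM in NBD, and 3.12, 6.00 and 124 CPM in the controls. SAA2 gave 64.4, 78.6 and 78.9 CPM in BD, 97.6, 73.1 and 108 CPM in NBD, and 3.01, 2.07 and 85.6 CPM in the controls. For both genes control replicates 1 and 2 lay below every other library and control replicate 3 within the range of the sorted ones. The ratio of the other 7 libraries to control replicates 1 and 2 was 23.4 for SAA1 (counting interval 20.1 to 27.4) and 32.5 for SAA2 (26.6 to 40.2). SAA2 varied least over the 7 libraries, with the highest 1.68 times the lowest, and SAA1 reached 2.55 times. The SAA1 sequence shares 46.6% of its 50-base words with SAA2 and SAA2 shares 17.9% with SAA1, so reads could be split between them in ways the sources do not state. SAA2 also overlaps the read-through gene SAA2-SAA4 on the same strand by 267 exonic bases, which adds doubt to its counts.

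S100A7, S100A8 and S100A9 belong to the S100 family of small calcium-binding proteins on chromosome 1. S100A7 lies at 153457744 to 153460701 and S100A8 at 153390032 to 153391188 on the minus strand, and S100A9 at 153357854 to 153361027 on the plus strand. S100A8 and S100A9 form calprotectin, which withholds zinc and manganese, and S100A7, psoriasin, is active against bacteria. S100A8 gave 0.52, 1.49 and 4.55 CPM in BD, 0.85, 2.11 and 8.85 CPM in NBD, and 0.10, 0.22 and 6.03 CPM in the controls. S100A9 gave 3.27, 9.15 and 14.6 CPM in BD, 4.93, 9.27 and 33.1 CPM in NBD, and 0.61, 0.84 and 26.8 CPM in the controls. Both were highest in NBD replicate 3 and lowest in control replicate 1, and over the 7 libraries the highest was 17.0 and 10.1 times the lowest. S100A7 was at the limit of counting, with 3, 2 and 19 counts in BD, 5, 13 and 40 in NBD, and 0, 1 and 30 in the controls. The ratio of the other 7 libraries to control replicates 1 and 2 was 21.5 for S100A8 (counting interval 9.84 to 58.9) and 19.8 for S100A9 (13.6 to 30.1). For S100A7 the ratio was 22.5, from 1 count in the pair of controls, with an interval of 3.95 to 896. Its place among the genes lower in both controls rests on 2 counts in BD replicate 2 against 1 count in control replicate 2. S100A7 shares 14.2% of its 50-base words with S100A7A, which had no count in any library.

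The windows of these genes are shown because they lie in 1 cluster and had the widest spread over the 7 libraries. They are chr1:153460602-153460901 for S100A7, chr1:153391024-153391323 for S100A8 (1 of 3 windows listed for it) and chr1:153357604-153357903 for S100A9. S100A7 and S100A8 are on the minus strand and S100A9 on the plus strand (RefSeq, GRCh38.p14), and capitals mark matches to the same patterns.
S100A7: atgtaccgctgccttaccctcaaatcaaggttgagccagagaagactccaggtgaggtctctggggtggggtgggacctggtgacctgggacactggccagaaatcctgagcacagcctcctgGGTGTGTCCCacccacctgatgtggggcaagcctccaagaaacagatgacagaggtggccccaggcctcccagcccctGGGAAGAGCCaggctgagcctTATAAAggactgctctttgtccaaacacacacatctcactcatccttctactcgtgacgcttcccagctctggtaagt
S100A8: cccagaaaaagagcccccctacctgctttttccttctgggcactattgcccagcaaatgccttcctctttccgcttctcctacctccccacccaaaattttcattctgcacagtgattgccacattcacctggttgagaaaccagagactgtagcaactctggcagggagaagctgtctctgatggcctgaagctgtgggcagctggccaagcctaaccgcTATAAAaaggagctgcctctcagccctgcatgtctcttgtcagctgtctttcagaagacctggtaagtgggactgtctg
S100A9: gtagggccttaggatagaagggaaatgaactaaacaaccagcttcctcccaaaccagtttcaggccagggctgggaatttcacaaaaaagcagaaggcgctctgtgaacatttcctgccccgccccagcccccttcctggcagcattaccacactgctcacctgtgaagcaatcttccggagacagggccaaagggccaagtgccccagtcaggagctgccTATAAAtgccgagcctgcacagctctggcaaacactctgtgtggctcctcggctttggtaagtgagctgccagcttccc
The letters TATAAA, the pattern of a core promoter element, began at -28 in S100A7 and at -29 in S100A9 and the S100A8 window shown. Of the S100A8 windows not shown, one held these letters from -126 and the other matched no pattern. Of all windows, 11.5% held them at any position, and the share at these positions was not computed. S100A7 also matched the NF-kB pattern at -127 to -118 and at -49 to -40. S100A8 and S100A9 matched none of the other patterns.

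PI3 and SLPI encode elafin and the secretory leukocyte protease inhibitor, which block neutrophil elastase and carry the WFDC fold. They lie on chromosome 20, PI3 at 45174876 to 45176544 on the plus strand and SLPI at 45252239 to 45254564 on the minus strand. SLPI gave 16.7, 44.0 and 73.2 CPM in BD, 15.3, 33.6 and 78.4 CPM in NBD, and 13.8, 15.3 and 65.0 CPM in the controls. NBD replicate 1 lay between control replicates 1 and 2, so SLPI was the member without a gap between those controls and the rest. The ratio of the other 7 libraries to control replicates 1 and 2 was 3.20 for SLPI (counting interval 2.93 to 3.49). PI3 was at 5, 8 and 31 counts in BD, 12, 8 and 38 in NBD, and 1, 0 and 40 in the controls, with a ratio of 28.5 and an interval of 5.03 to 1133. PI3 was thus close to the limit of counting in every library labelled 1 or 2, and SLPI was not.

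PIGR, the polymeric immunoglobulin receptor, carries polymeric IgA across epithelia. It lies on chromosome 1 at 206928518 to 206946466 on the minus strand. PIGR gave 7.61, 15.8 and 36.2 CPM in BD, 8.37, 10.1 and 34.6 CPM in NBD, and 0, 0.17 and 39.5 CPM in the controls. A count of 0 allows up to 3 counts, or 0.153 CPM in control replicate 1 and 0.168 CPM in control replicate 2. Control replicates 1 and 2 held 0 and 3 counts of PIGR, so the ratio of 272 has a counting interval of 93.0 to 1320. PDZK1IP1, also called MAP17, is a small membrane protein that binds PDZ domains. It lies on chromosome 1 at 47183593 to 47191044 on the minus strand and gave 8.23, 32.7 and 31.5 CPM in BD, 8.15, 24.3 and 38.4 CPM in NBD, and 0.10, 0 and 32.4 CPM in the controls. Control replicates 1 and 2 held 2 and 0 counts, and the ratio was 464 with an interval of 128 to 3835. Both genes were thus near 0 in those controls and at a like level in control replicate 3 and the sorted replicates 3. The PDZK1IP1 window, chr1:47189987-47190286 on the minus strand (RefSeq, GRCh38.p14), is shown because it held the NF-kB pattern too.
PDZK1IP1: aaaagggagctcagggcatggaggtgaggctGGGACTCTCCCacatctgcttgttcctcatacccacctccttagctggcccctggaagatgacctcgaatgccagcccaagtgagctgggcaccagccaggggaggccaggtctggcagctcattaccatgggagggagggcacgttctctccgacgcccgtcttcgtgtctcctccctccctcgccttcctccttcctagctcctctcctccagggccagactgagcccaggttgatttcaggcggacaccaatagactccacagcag
The match lay at -219 to -210, with a reverse-strand match at -218 to -209. PIGR had a window that matched no pattern.

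Ranked by CPM per kilobase of exon, the median over the 7 libraries other than control replicates 1 and 2 was 924 for LCN2, 137 for SAA1, 73.8 for SLPI, 35.4 for SAA2, 21.9 for PDZK1IP1 and 16.1 for S100A9. The remaining medians were 3.61 for PIGR, 2.10 for S100A8, 1.00 for S100A7 and 0.77 for PI3. Between neighbours in this order, the ranges over the 7 libraries were apart for LCN2 and SAA1 and for SAA2 and PDZK1IP1, and overlapped for the other pairs. In control replicates 1 and 2 SLPI led with 23.2 and 25.7 CPM per kilobase, and LCN2 was at 0.64 and 0.77.

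The sorted groups held a spread between replicates that the BD and NBD means hide. In 5 of the 10 genes, LCN2, S100A8, S100A9, SLPI and PIGR, replicate 1 was the lowest and replicate 3 the highest of its group in both BD and NBD, as in 7.11% of genes. Replicate 3 was at least 2-fold above replicate 1 in both groups for 8 of 10, all but SAA1 and SAA2, as in 3.32% of genes. Replicate 1 was the lowest of both groups in 7 of 10 (25.6% of genes) and replicate 3 the highest of both in 8 of 10 (13.2%). The replicate numbers are names without order, so this says only which libraries were high and low. Control replicate 3 lay within the range of the 6 sorted libraries for 8 of 10 genes, as did 87.3% of genes, and PI3 and PIGR lay above all 6, as did 5.87% of genes. Over the 7 libraries 8 of 10 genes, all but SAA1 and SAA2, had a highest library at least 3 times the lowest, as did 24.6% of genes.

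The same libraries differed by transcript length. The log2 difference of replicate 3 over replicate 1 had a median of 0.32 in BD and 0.87 in NBD over 142 protein-coding genes with exons under 1000 bases, and -0.06 and -0.05 over 8224 genes of 4000 bases or more. PIGR, with 4376 exonic bases, is in the class of the longest genes and differed by 2.24 and 2.04, and SLPI, with 596 bases, by 2.12 and 2.36. S100A8 differed most, by 2.94 and 3.26, and SAA2 by 0.29 and 0.15. The 8 genes other than SAA1 and SAA2 thus lay above the median of their length class in both groups. The part of length in these differences was not tested.

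**Figure D2:**
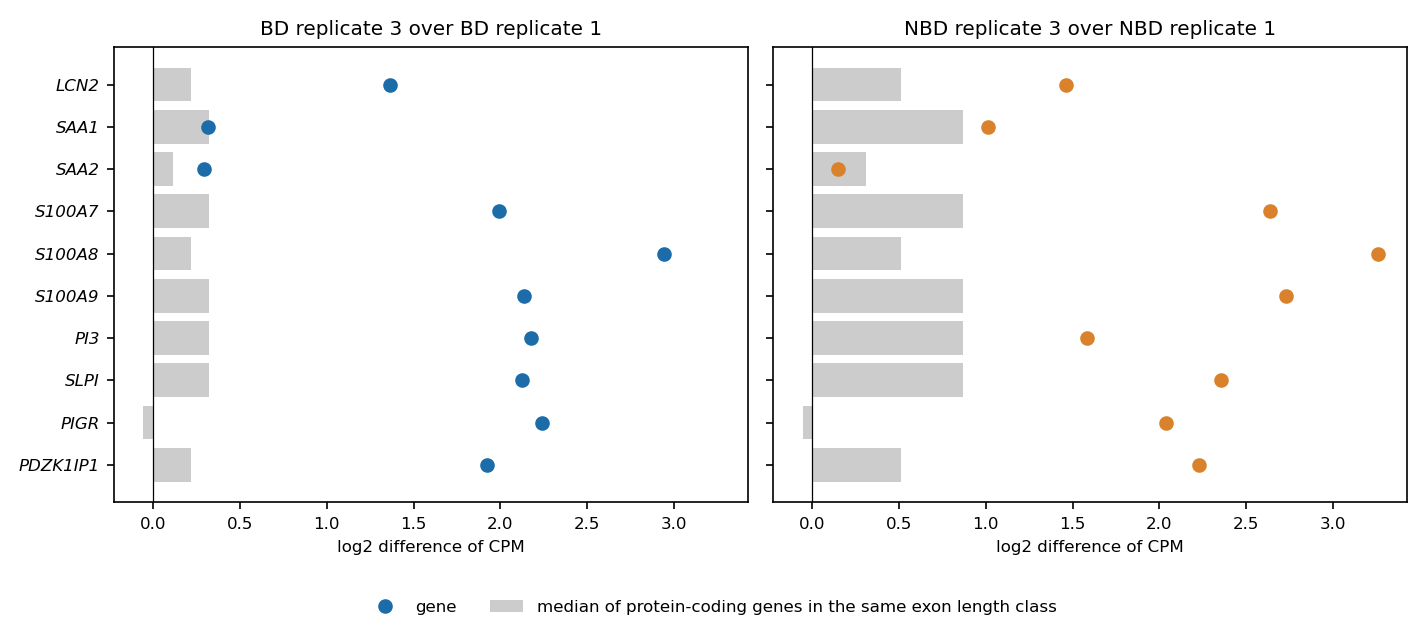
Log2 difference of normalised CPM between replicate 3 and replicate 1 of BD (left) and of NBD (right) for each gene (points), with the median of protein-coding genes of the same exon length class as grey bars. All points but those of SAA1 and SAA2 lie well beyond the bars, PIGR at 2.24 and 2.04.

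BD and NBD, the sorted subpopulations, held these defence genes at levels that overlapped throughout. In BD and then NBD, SAA2 averaged 73.9 ± 8.29 and 92.9 ± 17.9 CPM (SD, n = 3 for each group here). SLPI was at 44.6 ± 28.2 and 42.4 ± 32.5 CPM, PIGR at 19.9 ± 14.7 and 17.7 ± 14.7 CPM, and PDZK1IP1 at 24.1 ± 13.8 and 23.6 ± 15.2 CPM. S100A9 averaged 9.01 ± 5.68 and 15.8 ± 15.2 CPM, and NBD replicate 3 was the highest of the 6 libraries. None of the 10 genes differed between BD and NBD past the threshold of an adjusted p under 0.05 (edgeR quasi-likelihood test with Benjamini-Hochberg adjustment), and 3 of 16921 genes did, 0.0177%. No member had an unadjusted p under 0.05 in this fit, and DESeq2, which gave 9 of them an adjusted p and SAA2 none, called 0 of those 9 (0.343% of genes). Limma-voom called 0 of 10 (0.0295% of genes), and edgeR without a filter on low counts called 0 of 10 (0.333%). In that unfiltered edgeR fit 2 of 10 had an unadjusted p under 0.05, as had 4.75% of genes. By range, none of the 10 had all BD libraries below or above all NBD libraries, as 7.36% and 7.19% of genes did. The largest difference in this fit was that of S100A7, at -1.42 ± 1.25 on the log2 scale (SE, adjusted p = 0.881), with a 95% interval of -4.20 to 1.36. Leaving out 1 library in turn moved it between -2.99 and -0.33, the smallest size without NBD replicate 3. S100A8 gave -0.84 ± 1.28 and S100A9 -0.81 ± 1.19 (adjusted p = 0.937 for each), and LCN2 -0.09 ± 1.76 (adjusted p = 0.996, interval -3.98 to 3.80). These intervals allow large differences either way, and the fit takes its spread from all 9 libraries, control replicates 1 and 2 included.

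When only the 6 sorted libraries were fitted, the intervals narrowed, and again no member passed, as 0.031% of genes did. LCN2 then gave -0.11 ± 0.43 with an interval of -1.06 to 0.85, and SAA2 -0.35 ± 0.19 with an interval of -0.78 to 0.09 (adjusted p = 0.639, edgeR quasi-likelihood test). PIGR gave 0.15 ± 0.63 and PDZK1IP1 0.02 ± 0.58. Within each replicate number, BD was below NBD in 3 of 3 for S100A7, S100A8, S100A9 and PI3. The log2 differences were -0.52, -1.96 and -1.17 for S100A7 and -0.63, -0.48 and -0.95 for S100A8. They were -0.58, -0.02 and -1.17 for S100A9 and -1.05, -0.06 and -0.46 for PI3, so both were nearly level in replicate 2. The share of all genes below in 3 of 3 was not computed, and nothing is read from this count. For the other 6 genes the sign differed between numbers, with 0.49, 0.45 and -0.21 for SAA1. The numbers were not shown to pair the samples. In the fit to all 9 libraries the median of the 10 genes was -0.21, with 4 of 10 above 0, beside a median of -0.02 over all genes. That median turned to 0.42 without NBD replicate 3, with 8 of 10 above 0, and was -0.38 without NBD replicate 1, with 0 of 10 above 0.

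**Figure D3:**
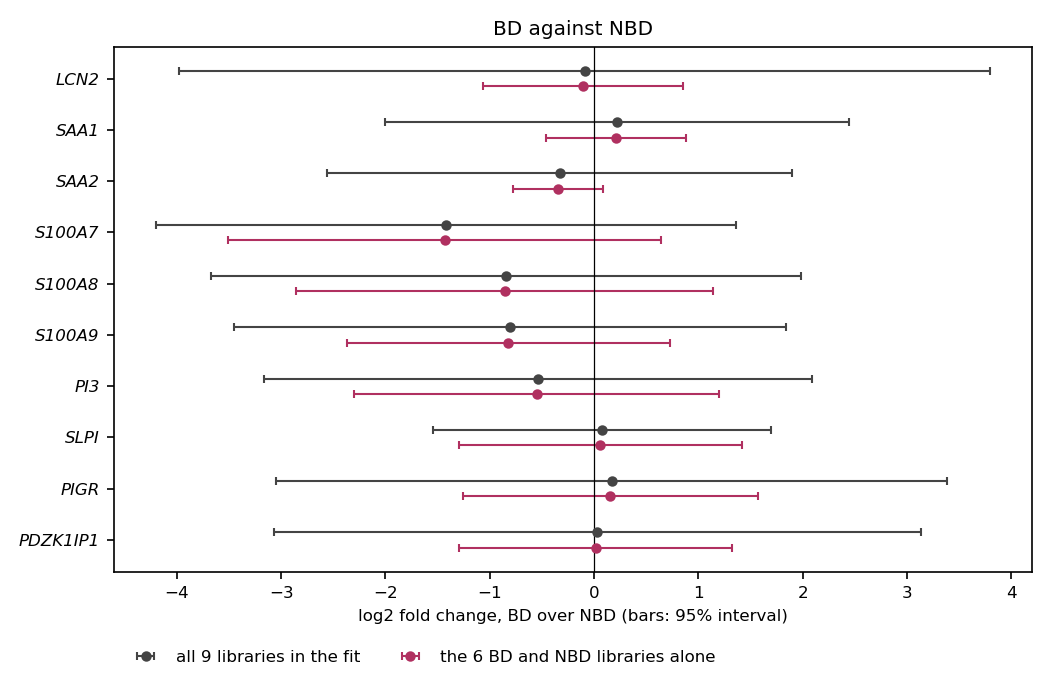
Log2 fold change of BD against NBD for each gene with its 95% interval, from the fit to all 9 libraries and from the fit to the 6 sorted libraries. Every interval crosses 0, and that of LCN2 runs from -3.98 to 3.80 with all libraries and from -1.06 to 0.85 with the sorted ones.

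Against the control group, none of the 10 genes passed the threshold in BD or in NBD, where 0 of 16921 genes (0%) did in either comparison (edgeR quasi-likelihood test with Benjamini-Hochberg adjustment). Unadjusted p-values under 0.05 were found for 2334 genes in BD and 1545 in NBD, among them 0 of the 10. DESeq2 called 167 and 30 genes (0.987% and 0.177%), with 0 of the 8 members that had an adjusted p in BD and 0 of 9 in NBD, SAA2 having none in either and S100A7 none in BD. Limma-voom called 0 of the 10, and 0.00591% of genes in BD and 0% in NBD. By limma-voom 5 of the 10 had an unadjusted p under 0.05 in each, as had 15.5% of genes in BD and 10.7% in NBD. LCN2 gave 1.27 ± 1.78 in BD and 1.36 ± 1.79 in NBD on the log2 scale (adjusted p = 0.733 and 0.757 by the same edgeR test), against a control group whose libraries span 1.02 to 1808 CPM. By limma-voom, which fits log values, LCN2 gave 6.26 ± 2.19 in BD and 6.33 ± 2.19 in NBD (adjusted p = 0.314 and 0.457, limma). SAA2 gave 1.28 ± 1.03 and 1.61 ± 1.03, and SLPI 0.50 ± 0.73 and 0.43 ± 0.73. The median of the 10 genes was 0.54 in BD and 0.86 in NBD, with 7 and 10 of 10 above 0, beside medians of 0.03 and 0.04 over all genes. The median was -0.12 in BD without BD replicate 3 and -0.30 in NBD without NBD replicate 3, each with 4 of 10 above 0, and was 2.13 and 2.30 by limma-voom. These comparisons share the control libraries.

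Without a filter on low counts, LCN2, SAA1, SAA2 and PDZK1IP1 passed in both comparisons, where 2.95% and 1.51% of genes did. LCN2 gave 1.27 ± 0.28 in BD in that fit, beside 1.27 ± 1.78 with the filter (SE). The change was thus the same and only its SE was smaller, while the control libraries still spanned 1.02 to 1808 CPM. These calls are therefore not read as a result. The calls also turned on control replicate 3. Without it, 6 of the 10 genes passed in BD (LCN2, SAA1, SAA2, S100A9, PIGR and PDZK1IP1) and 8 in NBD (the same 6, S100A8 and PI3), where 24.3% and 18.2% of genes did, and the changes were 10.34 and 10.45 for LCN2, 7.87 and 7.72 for PIGR and 1.63 and 1.57 for SLPI. As these are the values the list was chosen on, no test is read from them. Set against control replicate 3 alone, the median of the 10 genes was -0.77 in BD and -0.58 in NBD, with 0 and 1 of 10 above 0. LCN2 gave -0.32 and -0.22, although BD and NBD replicates 3, at 2089 and 2444 CPM, lay above the 1808 CPM of that control.

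Genes of the wider defence pathway were described through lists of other acute-phase genes, antimicrobials, S100 genes, WFDC inhibitors, cytokine inputs, transcription factors and partners. Of their 93 tested genes, edgeR with all 9 libraries called 0, with unadjusted p-values under 0.05 for 7 in BD against NBD, 21 in BD against control and 7 in NBD against control. Over all genes such p-values were found for 991 (5.86%), 2334 (13.8%) and 1545 (9.13%). DESeq2 called 1, a cytokine input in BD against NBD. All 7 tested of 22 other acute-phase genes were lower in control replicates 1 and 2 than in all other libraries, as 21.6% of all genes were. The count of 7 covers only genes kept by the filter on low counts, and the part of the filter in it was not tested. FGL1, a gene of the list that the filter dropped, went the other way. It reached at most 0.12 CPM in the other libraries, against 0.31 and 0.56 CPM in those controls. C3, the central complement protein, was at 24.7 and 29.3 CPM there and at 465 to 1090 CPM in the others. CFB, complement factor B, was at 0.05 and 0.28 CPM against 8.52 to 21.9 CPM, and LRG1, a leucine-rich plasma glycoprotein, at 1.58 and 1.18 CPM against 16.3 to 43.8 CPM. The medians of the tested acute-phase genes, for BD and NBD against control, were 0.96 and 0.90, beside 0.03 and 0.04 over all genes. These turned on control replicate 3, as they were 4.82 and 4.68 without it, each over 7 genes. With it as the only control they were -0.24 and -0.39, over the 8 genes that the filter kept there.

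Of 29 other antimicrobial genes only 3 were tested, and 14 had no count in any library. CCL20, a chemokine with antimicrobial activity, was in these controls at 0.20 and 0.17 CPM, against 3.38 to 12.3 CPM elsewhere. Of 28 genes in the WFDC and serpin list, 11 were tested, of which 3 were lower in both controls than in all others and 1 was higher, beside 21.6% and 18.9% of all genes. SERPINB3, an inhibitor of cysteine proteases, was at 3.42 and 4.99 CPM against 56.7 to 345 CPM, and WFDC2 at 1.69 and 2.02 CPM against 15.1 to 32.5 CPM. Of 17 other S100 genes 10 were tested, of which 3 were lower and 2 higher, against the same shares. S100A6 was at 117 and 139 CPM against 230 to 469 CPM, and S100A2 ran the other way, at 394 and 507 CPM against 162 to 319 CPM.

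Of 29 cytokine and receptor inputs, 22 were tested, of which 7 were lower and 6 higher in control replicates 1 and 2 than in all others, where 21.6% of all genes were lower and 18.9% higher. IL6 was at 2.86 and 2.92 CPM against 14.7 to 53.7 CPM, and IL1R1, the receptor for IL-1, was higher there, at 9.25 and 8.47 CPM against 0.86 to 2.38 CPM. Of 29 tested transcription factors, 14 were lower and 3 higher, beside the same 21.6% and 18.9%. FOS, a subunit of AP-1, was at 2.76 and 3.31 CPM against 186 to 589 CPM, and NFKBIZ, an NF-kB cofactor that acts on LCN2 and other defence genes, at 14.2 and 12.1 CPM against 80.9 to 145 CPM. ELF3, an epithelial ETS factor, was at 31.2 and 33.1 CPM against 182 to 437 CPM. CEBPB and CEBPD were chosen after their values were seen. CEBPB was at 11.9 and 13.9 CPM against 30.7 to 68.8 CPM, and CEBPD at 5.57 and 5.10 CPM against 21.6 to 50.2 CPM. Among the other tested C/EBP and NF-kB genes, only REL was also below all others in both controls. NFKB1, at 96.2 and 105 CPM against 72.5 to 116 CPM, lay within the range of the others. So did RELA, at 38.2 and 45.1 CPM against 25.6 to 49.8 CPM, and NFKB2 and CEBPG. CEBPA and RELB were below the range in control replicate 1 only. Of 25 receptors and partners, 11 were tested, of which 5 were lower and 3 higher, beside those shares again. TLR2, which senses bacterial lipopeptides, had no count in control replicates 1 and 2 and lay at 12.1 to 18.9 CPM in the others.

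**Figure D4:**
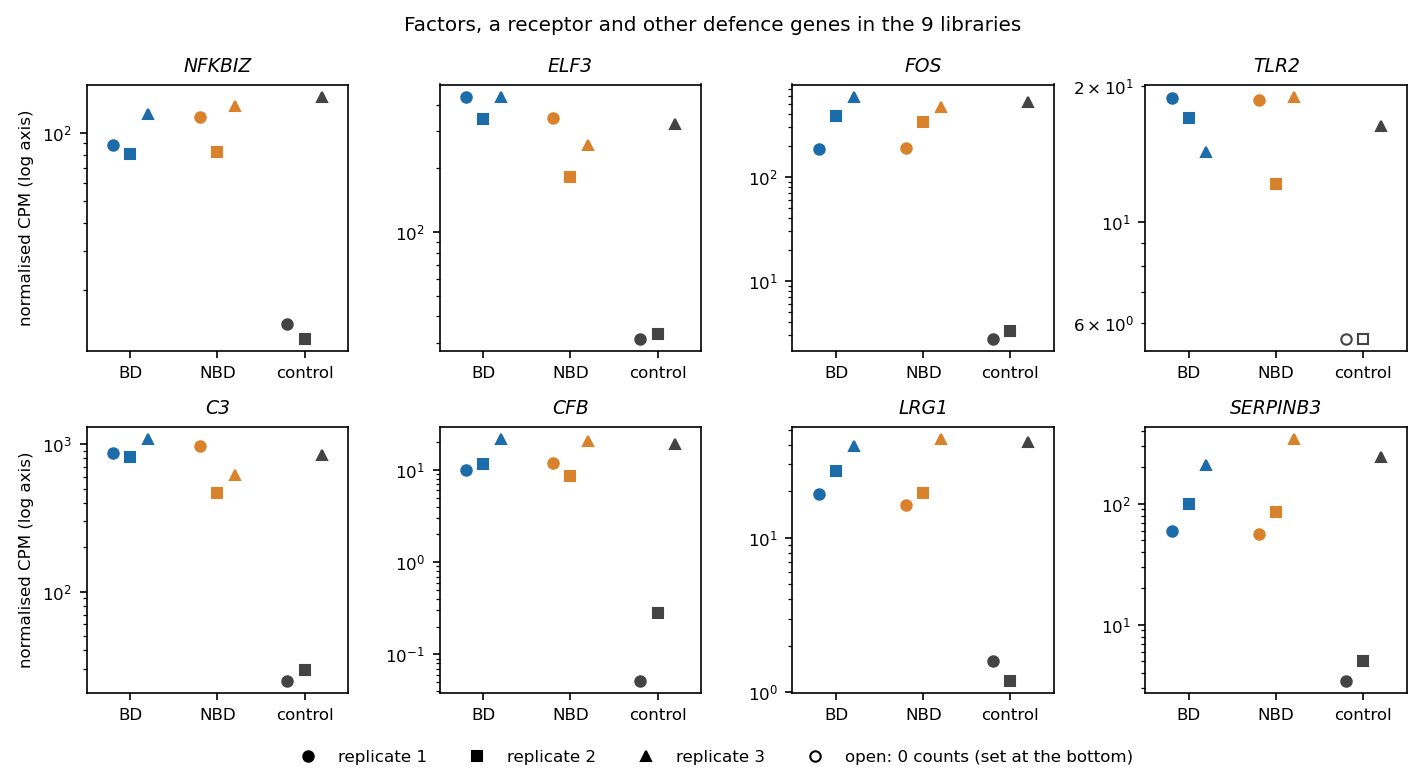
Normalised CPM of NFKBIZ, ELF3, FOS, TLR2, C3, CFB, LRG1 and SERPINB3 in each library on log axes, 1 point per library by group, with open symbols at the bottom for 0 counts. In all 8 genes shown control replicates 1 and 2 sit below all other libraries, FOS at 2.76 and 3.31 CPM against 186 to 589 CPM. The 8 were picked from genes named for their difference in those controls, so this was fixed by the choice. IL1R1, S100A2, S100A10 and KLK7, named by the same rule, were higher there and are not shown.

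The nearest protein-coding genes on the chromosome gave mixed values in control replicates 1 and 2. PTGES2, beside LCN2, lay in those controls at 71.9 and 97.4 CPM, against 90.6 to 134 CPM in the others, and HPS5, beside SAA1, at 72.7 and 71.4 CPM against 70.5 to 94.9 CPM. C9orf16, on the other side of LCN2, was at 17.6 and 21.5 CPM against 49.4 to 97.2 CPM. SAA4, next to SAA2, was at 0.20 and 0.11 CPM against 2.69 to 11.1 CPM.

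The genes most like a member over the 9 libraries by Pearson correlation of log2 CPM, among 10579 compared, were PDGFD for LCN2 (0.999), CP for S100A8 (0.982) and PLAT for SLPI (0.982). The points include control replicates 1 and 2, which lie far from the rest. Over the 7 other libraries, LCN2 was most like CD55 (0.993), S100A9 like HLA-DRA (0.990), SLPI like PROS1 (0.992), PIGR like RHOV (0.994) and PDZK1IP1 like PMAIP1 (0.995). Among the members over those 7 libraries, S100A8 and S100A9 correlated at 0.99, LCN2 and SLPI at 0.98, and SAA1 and SAA2 at -0.06. The libraries share depth and replicate differences, so these are descriptions across 7 or 9 points.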

How the data were processed

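Stranded, rRNA-depleted, paired-end libraries of total RNA were sequenced, and the protocol names 2 RNA kits without saying which library used which, per the labels' protocols. The deposited values are read counts per gene as the authors made them, and the submitters' processing notes name the tools FastQC 0.74 and Trimmomatic 0.39, STAR 2.7.11b, featureCounts and the build GRCh38. The annotation release, strand setting and handling of multiply matching reads were not given in the sources used here, so overlapping genes and near copies are uncertain.

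Symbols came from a gene name table that matched 61458 of 78899 IDs, and coordinates and exon lengths from GENCODE 29. The filterByExpr rule kept 16921 genes, and scaling was by TMM. One edgeR 4.0.16 quasi-likelihood fit (R 4.3.3) covered the 9 libraries by group, leaving 6 residual degrees of freedom. P-values were two-sided, Benjamini-Hochberg adjusted over all genes tested, and called under 0.05. Levels are TMM-scaled CPM, and log2 CPM used a prior count of 2. Counting intervals are exact at 95%. The fit was also run on simulated counts, drawn from the same mean in all libraries apart from changes put into whole groups. These counts lacked the split among the control libraries, so nothing is read from them about these data. Plots used matplotlib 3.10.9.

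The members, the gene lists and the rule for named genes were chosen with earlier results of these data known. The rule named all members, up to 4 genes per list by the difference between control replicates 1 and 2 and the rest with at least 5 CPM in 1 library, the 3 genes most like each member, and the nearest genes, of which some are printed. Alternatives were other size factors, no filter or 1 CPM in 3 libraries, DESeq2 1.42.0, limma-voom (limma 3.58.1), a replicate block, the compared libraries alone and leaving out each library. Control replicate 3 as the only control, the block with the sorted libraries alone and leaving out all libraries numbered 3 were chosen after seeing the data.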

Additional observations from a re-analysis of the deposited data

How the results depend on the processing

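No member was called between BD and NBD under any setting run, while the count of all genes called, 3, became 131 without a filter, 58 with DESeq2, 8 with upper quartile factors, 5 with limma-voom, 5 with the 6 libraries compared alone, 0 with the replicate block, 164 with the block in the 6 sorted libraries, 9 without the libraries numbered 3, and 0 to 16 leaving out 1 library. Same-numbered BD and NBD libraries correlated at 0.61, 0.07 and 0.33 in their deviations from the group means. Differently numbered ones correlated at -0.57, -0.50, -0.31, -0.05, -0.01 and 0.42. The labels do not say that the numbers pair samples, and these values do not settle it. With the block in the 6 sorted libraries, 3 of 10 members had an unadjusted p under 0.05, as had 2527 of 16151 genes (edgeR). The 3 were S100A7 at -1.52 (95% interval -2.71 to -0.34), S100A8 at -0.76 (-1.39 to -0.13) and S100A9 at -0.63 (-1.12 to -0.13). The lowest adjusted p of a member was 0.209 (edgeR). With the block in all 9 libraries, LCN2 gave 5.16 against control in BD and in NBD, and 3 of 10 members had an unadjusted p under 0.05 in each, with none called. Over all genes 3562 in BD and 2499 in NBD, of 16921, had such a p (edgeR). Against control, calls of all genes went from 0 to 1162 (BD) and 594 (NBD) without a filter, 167 and 30 with DESeq2, 1 (BD) with limma-voom, and 0 to 4317 and 0 to 3228 leaving out 1 library. Members called were 4 and 4 without a filter, and 0 to 6 and 0 to 8 leaving out 1 library, the highest without control replicate 3.

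Signs changed as follows, on the log2 scale, and the cause was not tested. For BD against NBD, LCN2 gave 0.0023 with the replicate block and 0.056 without the libraries numbered 3. Leaving out 1 library gave -0.44 to 0.40 for LCN2, -0.057 to 0.41 for SAA1, -0.38 to 0.58 for PDZK1IP1, -0.48 to 0.88 for SLPI, -0.59 to 1.12 for PIGR, -1.97 to 0.57 for S100A8, -1.34 to 0.35 for S100A9 and -1.62 to 0.43 for PI3. For BD against control, limma-voom gave 0.41 for S100A7, 1.42 for S100A9 and 1.25 for PI3, and the replicate block 1.24 for S100A9 and 0.56 for PI3. With control replicate 3 as the only control, BD gave -0.32 for LCN2, -0.16 for SAA1, -0.22 for SAA2, -1.47 for S100A8, -0.55 for SLPI, -0.998 for PIGR and -0.43 for PDZK1IP1, and NBD -0.22 for LCN2, -0.39 for SAA1, -0.56 for S100A7, -0.61 for S100A8, -0.76 for S100A9, -0.99 for PI3, -0.61 for SLPI, -1.16 for PIGR and -0.46 for PDZK1IP1. Leaving out 1 library gave -0.64 to 3.64 for S100A9, -1.15 to 4.06 for PI3, -1.10 to 3.73 for S100A8, -0.049 to 1.63 for SLPI, -0.19 to 7.87 for PIGR and -2.12 to 3.18 for S100A7 for BD, and -0.23 to 4.61 for S100A7, -0.55 to 4.59 for S100A8, -0.43 to 4.46 for S100A9, -0.50 to 4.61 for PI3, -0.37 to 1.57 for SLPI and -0.54 to 7.72 for PIGR for NBD. S100A7 and PI3 rest on at most 40 counts in any library.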
